A study of Argyrosomus regius with 12 samples.

Results

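The Trinity gene with the most sequenced counts in the meagre spleen, TRINITY_DN1065_c1_g1, and the 100 Trinity genes whose level followed it most closely are described here. Meagre (Argyrosomus regius) is a marine bony fish. A Trinity gene is a group of assembled transcripts that the assembler places under 1 gene identifier. Counts were summed over its isoforms, divided by the library total and multiplied by 1000000 to give CPM. The first gene was chosen by its summed count over 12 libraries, 16203354 counts or 3.67% of all counts. The 100 tracking genes were those with the highest Pearson r with it, over the 12 libraries, in log2(CPM + 0.5), among 15805 Trinity genes with a mean CPM of at least 5. These members are a small part of 42480 Trinity genes, and their levels in these libraries chose them. Their r, and any group difference they share with the first gene, is therefore a description and not a finding.

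The study compared spleens of juvenile fish of 22 g, kept at 22 °C, at 4 h and 24 h after an injection into the body cavity. Control fish received phosphate buffer saline (PBS). Treated fish received 10 µg per g of lipopolysaccharide (LPS), the outer membrane component of Gram-negative bacteria, extracted from Photobacterium damselae subsp. piscicida. Each of the 4 groups (PBS 4 h, PBS 24 h, LPS 4 h and LPS 24 h) had 3 libraries, and each library came from the pooled spleens of 4 fish, so a value is an average over 4 animals. The labels used here state no age, sex or strain of the fish.

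The spleen of bony fish filters the blood, stores and breaks down blood cells, and holds macrophages and lymphocytes that take up bacterial material. LPS is detected by such cells, which then alter the transcription of many genes. A tissue sample mixes all of these cells, so the RNA of a gene made by 1 cell type depends on how much of that cell type each pool held. In bulk libraries fewer cells of a type and less RNA per cell cannot be told apart. No table used here gives names for the identifiers, so none of the members is given a function or a cell type, and the label of the tissue was not checked against marker genes.

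Library totals ran from 29614365 to 56556752 counts, and between 91.1% and 95.1% of the Trinity genes were detected in each. Among the 15805 genes, 42.6% of the variance of log2(CPM + 0.5) lay on a first principal component that set LPS 4 h replicates 1 and 3 apart, with scores of 96.2 and 104.8. Every other library, LPS 4 h replicate 2 included (score -14.1), had a score between -29.5 and -10.4.

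TRINITY_DN1065_c1_g1 had the most counts of any Trinity gene in each of the 12 libraries, yet its share varied 7.17-fold among them. In the PBS 4 h pools it held 1.86%, 3.59% and 1.32% of the library for replicates 1 to 3. In the PBS 24 h pools it held 4.73%, 3.43% and 9.48%. In the LPS 4 h pools the shares were 5.71%, 3.44% and 3.23%, and in the LPS 24 h pools 4.07%, 1.91% and 1.46%. The highest library, PBS 24 h replicate 3, and the lowest, PBS 4 h replicate 3, both came from control fish, and each group overlapped with every other. Counting error was small beside this spread, with a Wilson 95% interval of 9.47% to 9.49% in the highest library, which covers counting error only.

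**Figure D1:**
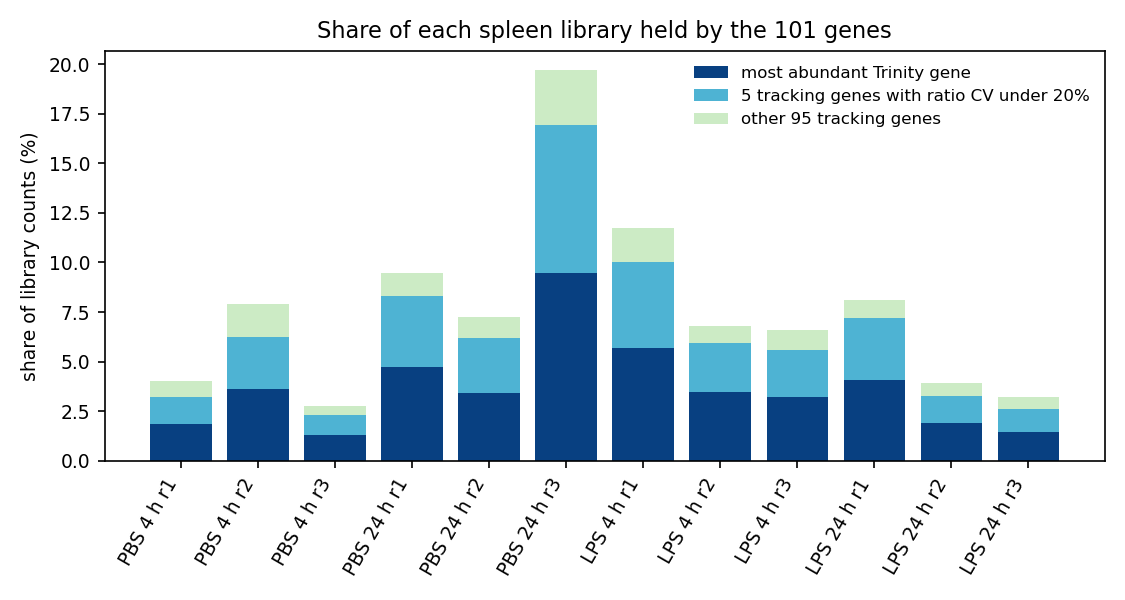
Share of library counts in percent (vertical axis) for each of the 12 libraries (r, replicate), stacked as TRINITY_DN1065_c1_g1, the 5 tracking genes in the steadiest ratio to it and the other 95. The whole bar runs from 2.76% in PBS 4 h replicate 3 to 19.7% in PBS 24 h replicate 3, and pools of 1 group differ by up to 2.86-fold.

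The 100 tracking genes together held about as many counts as TRINITY_DN1065_c1_g1 itself. With it, the members took 4.03%, 7.91% and 2.76% of the PBS 4 h libraries. They took 9.47%, 7.26% and 19.7% of the PBS 24 h libraries. The LPS 4 h libraries gave them 11.7%, 6.79% and 6.61%, and the LPS 24 h libraries 8.10%, 3.92% and 3.20%. Group means were 4.90% ± 2.68, 12.1% ± 6.63, 8.38% ± 2.90 and 5.07% ± 2.65 in the same order (SD, n = 3 pools each). Without PBS 24 h replicate 3 the PBS 24 h mean was 8.37%. The lowest and highest pool of a group differed 1.77-fold in LPS 4 h and between 2.53-fold and 2.86-fold in the other groups.

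A share this large sets what is left for other genes. The remaining genes held 80.3% of PBS 24 h replicate 3 and between 88.3% and 97.2% of the other libraries. Relative to its mean over the 12 libraries, the remaining share in PBS 24 h replicate 3 was lower by a log2 value of -0.20, while the other libraries lay between -0.07 and 0.07. The CPM of a gene outside the set carries this shift in addition to any change of its own.

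A group of 5 members, chosen after their values were seen, kept a steady ratio to TRINITY_DN1065_c1_g1 while its share varied. The ratio is given as counts per 100 counts of TRINITY_DN1065_c1_g1. It compares reads and not molecules, because transcript lengths were not available here, so only its constancy across libraries is described. Their coefficient of variation (CV, the SD over the mean of the 12 libraries) was between 4.13% and 14.5%. No other gene had a CV under 20% among the 95 other tracking genes, where the lowest was 20.3%, or among the 15704 genes outside the set, where the lowest was 31.8%. The 5 were also the 5 highest by r, at 0.965 or more, against 0.946 or less in the other 95. A high r and a slope near 1 favour a low CV, and a lower r sets a floor under it. The gap in CV between the 5, the 95 and the genes outside therefore largely follows from the ranking by r. It is given as a description.

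TRINITY_DN535_c0_g1, next to TRINITY_DN1065_c1_g1 by summed counts and highest by r (0.997), had the steadiest ratio. In the PBS 4 h pools it had 43.8, 43.1 and 39.9 counts per 100 of TRINITY_DN1065_c1_g1, and in the PBS 24 h pools 39.9, 41.7 and 42.3. In the LPS 4 h pools it had 43.1, 41.9 and 41.2, and in the LPS 24 h pools 44.7, 43.0 and 45.7. The ratio thus varied 1.15-fold over libraries in which its own level varied 7.59-fold, from 5278 CPM in PBS 4 h replicate 3 to 40081 CPM in PBS 24 h replicate 3. Group means lay between 41.3 ± 1.27 (PBS 24 h) and 44.4 ± 1.38 (LPS 24 h; SD, n = 3 each), and the LPS 24 h pools lay above the PBS 24 h pools while they overlapped with both 4 h groups.

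TRINITY_DN2052_c0_g1, next by summed counts, had an r of 0.9901. It had 25.6, 27.3 and 29.9 counts per 100 in the PBS 4 h pools and 32.5, 34.8 and 32.8 in the PBS 24 h pools. In the LPS 4 h pools it had 29.0, 28.0 and 28.3, and in the LPS 24 h pools 29.3, 25.8 and 31.0. All 3 PBS 24 h pools lay above the other 9 libraries, with a group mean of 33.4 ± 1.28 against 27.6 ± 2.16, 28.4 ± 0.50 and 28.7 ± 2.65 in PBS 4 h, LPS 4 h and LPS 24 h (SD, n = 3 each). The ratio was not tested, because both genes were chosen on these libraries.

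TRINITY_DN34120_c0_g1, next by r (0.991) at a mean of 1042 CPM, had a ratio CV of 8.03%. Its ratio was 2.50, 2.45 and 3.12 in PBS 4 h, 3.07, 3.15 and 2.91 in PBS 24 h, 2.77, 2.75 and 2.75 in LPS 4 h and 2.77, 2.79 and 2.64 in LPS 24 h pools. The LPS pools were nearly level, and most of the spread came from the PBS 4 h pools. TRINITY_DN8371_c0_g1 and TRINITY_DN28920_c0_g1 had far fewer counts, with means of 119.5 and 9.68 CPM. Their ratio CVs were 12.7% and 14.5%, of which counting error alone gave up to 2.86% and 9.13% in the library with the fewest counts (1225 and 120).

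**Figure D2:**
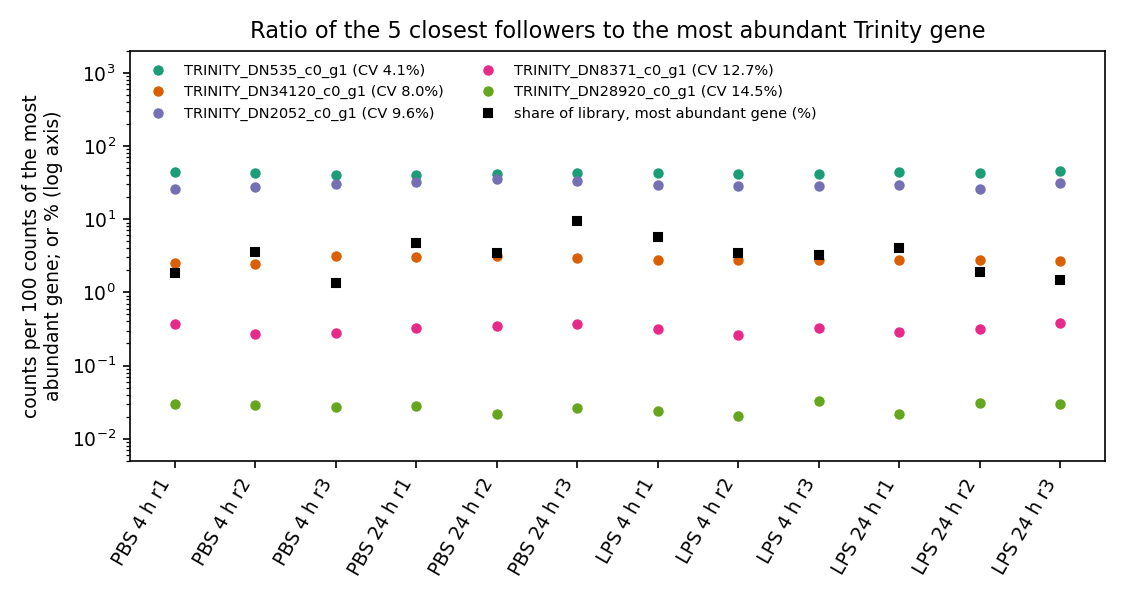
Counts per 100 counts of TRINITY_DN1065_c1_g1 (log axis) for the 5 genes in steadiest ratio to it, 1 point per library, with its own share of the library in percent as black squares. The coloured points stay level across the 12 libraries, varying between 1.15-fold and 1.61-fold per gene, while the black squares vary 7.17-fold.

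These 5 genes and TRINITY_DN1065_c1_g1 held 6.46% of all counts, and the other 95 tracking genes held 1.15%. The 5 had 70.9% of the summed CPM of the tracking genes. The 95 had a median mean level of 41.0 CPM, and the highest, TRINITY_DN6178_c0_g1, was at 2443 CPM. A high count alone did not place a gene in the set. Of the 10 Trinity genes with most counts, 3 were members, and the other 7 had r from -0.81 to -0.25. These negative values also carry the effect of the shared library total, which was not separated. Of the 100 with most counts, 5 were members.

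Most of the 95 had a slope below 1 on TRINITY_DN1065_c1_g1, and most correlated more closely with one another than with it. An r below 1 lowers such a slope, so it does not by itself give the size of a gene's variation. The SD of log2(CPM + 0.5) over the 12 libraries had a median of 0.74 in the 100 tracking genes (0.37 to 1.15). It was 0.84 in TRINITY_DN1065_c1_g1. The slope of their log2 level on that of TRINITY_DN1065_c1_g1 had a median of 0.75 and was below 1 in 81 of 95, against 0.85 to 1.06 in the 5 closest genes. Their median r with TRINITY_DN1065_c1_g1 was 0.868. Among themselves the median r of all pairs was 0.907, and for 70 of the 95 the median r with the other 94 was higher than the r with TRINITY_DN1065_c1_g1. After the part of each tracking gene predicted from TRINITY_DN1065_c1_g1 was taken out, the pairs of the 100 genes still had a median r of 0.584 (quartiles 0.340 and 0.755). The first principal component of this remainder, with each gene scaled to the same spread, held 58.6% of the variance, and 92 of the 95 had the same sign on it. Each remainder is taken from the same gene, so a deviation particular to TRINITY_DN1065_c1_g1 enters all of them. The genes were chosen on these libraries, and no such values over all genes are given here, so these values are a description.

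Pools with similar shares of TRINITY_DN1065_c1_g1 could therefore differ in the 95. PBS 4 h replicate 2 (3.59%) and LPS 24 h replicate 1 (4.07%) are an example, taken as the extremes of the ratio given below. Relative to each gene's mean over 12 libraries, the median of the 95 was at a log2 deviation of 0.58 in the first and -0.19 in the second, where TRINITY_DN1065_c1_g1 was at 0.19 and 0.37. Not all such pools differed. In PBS 24 h replicate 2 (3.43%) and LPS 4 h replicate 3 (3.23%) the median of the 95 was at 0.10 and 0.09. Of the 95, 93 were above their own mean in PBS 4 h replicate 2 and 18 in LPS 24 h replicate 1. Together the 95 had 47.0 counts per 100 of TRINITY_DN1065_c1_g1 in PBS 4 h replicate 2 and 22.0 in LPS 24 h replicate 1, the highest and lowest of the 12 libraries. In PBS 4 h replicates 1 and 3 the value was 44.6 and 35.7. It was 24.6, 31.7 and 29.3 in the PBS 24 h pools, 30.2, 24.1 and 32.5 in the LPS 4 h pools, and 33.5 and 39.9 in LPS 24 h replicates 2 and 3. The 3 PBS 4 h pools lay above all PBS 24 h and LPS 4 h pools on this ratio and overlapped with LPS 24 h. Most of the 95 had a slope below 1 on TRINITY_DN1065_c1_g1, so a low share of that gene tends to raise the ratio. Its share was low in PBS 4 h replicates 1 and 3 (1.86% and 1.32%), but not in replicate 2. The 95 were chosen on these libraries, so no group difference is read from the ratio. As a ratio of summed counts, this ratio mostly reflects the most abundant of the 95, and not each of them. TRINITY_DN6178_c0_g1, for example, had a mean of 2443 CPM, against a median of 41.0 CPM.

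**Figure D3:**
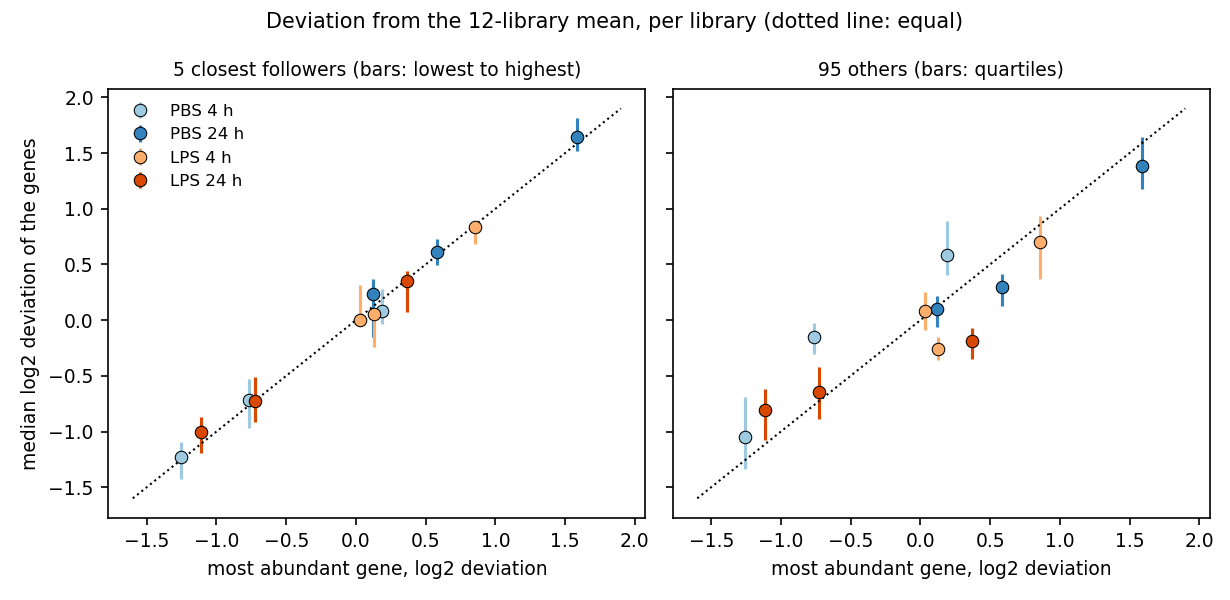
Log2 deviation from the 12-library mean of TRINITY_DN1065_c1_g1 (horizontal axis) and the median deviation of the 5 closest genes (left, bars from lowest to highest gene) and of the other 95 (right, bars are quartiles over genes), 1 point per library, coloured by group. The left points lie along the dotted line of equal deviation, and on the right PBS 4 h replicates 1 and 2 lie above it by 0.62 and 0.39 and LPS 24 h replicate 1 below it by 0.56.

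The edge of the set was not a step. TRINITY_DN1901_c0_g1, ranked 100 by r, had an r of 0.828072, and TRINITY_DN5260_c0_g1, the next by r and outside, had 0.827714. Over the 100 tracking genes r had a median of 0.871, with 22 above 0.9 and 5 above 0.95. Correlation with TRINITY_DN1065_c1_g1 was mostly negative over the 15804 other genes, with a median r of -0.189, and 66.4% were below 0. A larger share of this gene and its followers lowers the CPM of all other genes, which by itself makes r more negative. How much of the negative r comes from this was not tested. An r above 0.8 was found for 147 genes and one below -0.8 for 83. The 12 points behind each r share the library totals, and PBS 24 h replicate 3 is an end point in nearly all of the 100, being the highest library for 98, against 9.78% of all genes at a mean CPM of at least 5. The lowest library was PBS 4 h replicate 3 for 65, LPS 24 h replicate 3 for 25, LPS 24 h replicate 2 for 9 and PBS 4 h replicate 1 for 1.

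**Figure D4:**
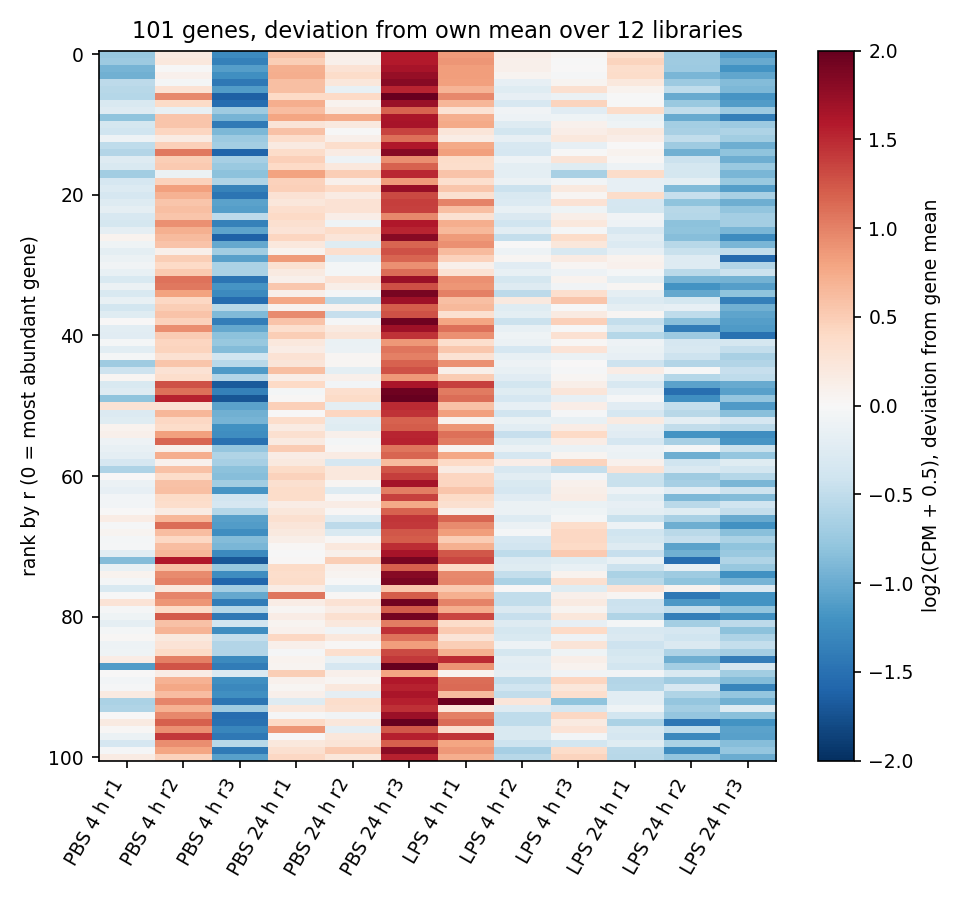
Log2(CPM + 0.5) of the members as deviation from each gene's mean (colour, scale ending at 2 and -2), ordered by r from TRINITY_DN1065_c1_g1 at the top (rank 0) to rank 100, with libraries in columns. PBS 24 h replicate 3 is the highest column for 98 of the 100 tracking genes, and PBS 4 h replicate 1 lies nearer to the mean below the first rows than in them.

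To read the pattern in libraries that had not chosen the genes, 100 genes were chosen on 11 libraries and read in the library left out. Deviations there are from each gene's mean over the libraries that chose it. TRINITY_DN1065_c1_g1 remained the gene with most counts each time, and 79 to 93 of the 100 tracking genes were kept. In the libraries left out, the median deviation of the genes had the sign of the deviation of TRINITY_DN1065_c1_g1 in 10 of 12. The exceptions were LPS 4 h replicate 2 and LPS 24 h replicate 1, where TRINITY_DN1065_c1_g1 lay at 0.14 and 0.40 and the genes at -0.29 and -0.26 on the log2 scale. In these libraries 7 and 19 of the 100 genes were above 0, against 64.9% and 48.1% of all genes. In PBS 24 h replicate 3 the genes chosen without it lay at 1.49 (98 of 100 above 0), where TRINITY_DN1065_c1_g1 lay at 1.73 and all genes had a median of -0.10. In PBS 4 h replicate 3 the values were -0.96 (100 of 100 below 0), -1.37 and 0.07. In PBS 4 h replicate 1, in contrast, the genes lay at -0.08 (63 of 100 below 0, against 36.1% of all genes) where TRINITY_DN1065_c1_g1 lay at -0.83. The shared sign was also weak in PBS 24 h replicate 2, with the genes at 0.07 (61 of 100 above 0, against 65.3% of all genes). It was weak again in LPS 4 h replicate 3, with the genes at 0.09 (60 of 100 above 0, against 30.6%). Over the 12 libraries left out, r between the 2 deviations was 0.890, given as a description, since the 12 choices share most of their libraries.

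**Figure D5:**
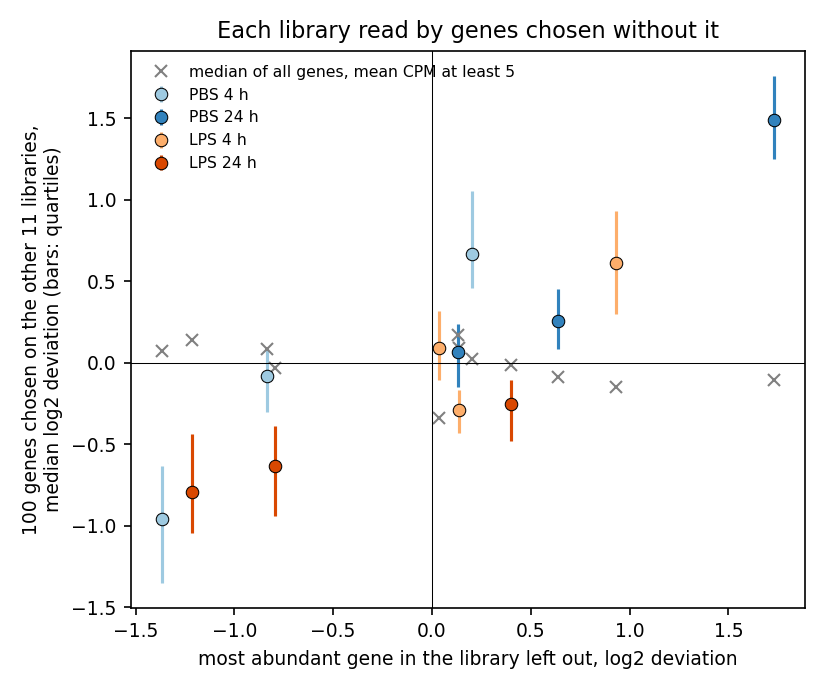
Log2 deviation of TRINITY_DN1065_c1_g1 in each library left out (horizontal axis) and the median deviation of the 100 genes chosen on the other 11 libraries (vertical axis, bars are quartiles over genes), coloured by group. Grey crosses give the median of all genes at a mean CPM of at least 5, which lies between -0.34 and 0.17 throughout, while the chosen genes run from -0.96 to 1.49.

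These genes varied between pools of 1 group as well as between groups. For TRINITY_DN1065_c1_g1, the SD of log2(CPM + 0.5) was 0.69 between pools within groups and 0.66 between the 4 group means, and group membership held a fraction of 0.509 of its variance. The SD of the group means and this fraction also hold part of the spread between pools, so they are not separate from it. For the 100 tracking genes that fraction had a median of 0.422, against 0.499 for all genes at a mean CPM of at least 5. The SD between pools within groups had a median of 0.65 in the tracking genes and 0.33 in all genes. Computed on deviations from the group means, r leaves out differences between groups. By this r, 62 of the 100 tracking genes were again among the 100 highest. The 100 tracking genes had a median of 0.882, against -0.217 for all genes at a mean CPM of at least 5. The rule chose them on these same libraries, spread within groups included, so both values in part follow from the choice.

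Whether LPS altered the level of TRINITY_DN1065_c1_g1 was tested with edgeR in a fit of 32542 Trinity genes and all 12 libraries, with Benjamini-Hochberg adjustment over all genes. This gene was chosen by its total alone, so its group contrast is independent of the choice. The estimates were large but no call was made. At 4 h the gene was at 22576 ± 11871 CPM in PBS and 41260 ± 13755 CPM in LPS pools (SD, n = 3 each), a log2 fold change of 1.06 with a standard error of 0.54 (edgeR adjusted p = 0.3004). Its 95% interval ran from -0.12 to 2.24. At 24 h it was at 58800 ± 31860 CPM in PBS and 24793 ± 13967 CPM in LPS pools (SD, n = 3 each), a log2 fold change of -1.26 with a standard error of 0.54 (edgeR adjusted p = 0.234) and an interval from -2.45 to -0.08. Leaving PBS 24 h replicate 3 out moved the 24 h estimate to -0.66 (edgeR adjusted p = 0.629). Leaving LPS 4 h replicate 2 out moved the 4 h estimate to 1.24 (edgeR adjusted p = 0.169). Without LPS 4 h replicate 1 that estimate was 0.76 (edgeR adjusted p = 0.646). The fit rescales the library totals (TMM), and the CPM values given here do not. With total counts alone the edgeR estimates were 0.87 at 4 h and -1.25 at 24 h.

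The estimates for time after injection had opposite signs in PBS and LPS fish. From 4 h to 24 h the log2 level of TRINITY_DN1065_c1_g1 differed by 1.47 with a standard error of 0.55 in PBS fish (edgeR adjusted p = 0.643). In LPS fish it differed by -0.86 with a standard error of 0.54 (edgeR adjusted p = 0.307). The LPS effect at 24 h minus that at 4 h was -2.32 on the log2 scale, with a standard error of 0.77, an interval from -3.99 to -0.65 and an unadjusted p of 0.0105 (edgeR adjusted p = 0.220). DESeq2 called this difference (adjusted p = 0.0466). Without PBS 24 h replicate 3 the edgeR estimate was 0.86 for time in PBS and -1.71 for the difference. The difference was -2.50 without LPS 4 h replicate 2 (edgeR adjusted p = 0.0587) and -2.02 without LPS 4 h replicate 1 (edgeR adjusted p = 0.455). For time in LPS the edgeR estimate was -0.55 without LPS 4 h replicate 1 or LPS 24 h replicate 3, and -1.42 without LPS 24 h replicate 1. These comparisons share libraries with one another. Averaged over the times, LPS pools differed from PBS pools by a log2 value of -0.15 (exact two-sided permutation test within time, p = 0.780, where the smallest possible p is 0.005). The LPS estimates at 4 h and 24 h had opposite signs and largely cancel in this average. It therefore cannot show whether LPS altered the gene at either time.

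The tracking genes carry the same group pattern by their choice, and their values are given as a description. The median log2 fold change of the 100 between LPS and PBS pools was 0.46 at 4 h, and at 24 h it was -1.35. It was 0.83 for 24 h against 4 h in PBS, -0.91 in LPS and -1.80 for the difference of the LPS effects. Over all genes tested the medians were -0.01, -0.08, 0.03, -0.03 and -0.05. All members passed the expression filter. At 24 h, 76 tracking genes had all LPS pools below all PBS pools, against 11.5% of 15802 genes tested at a mean CPM of at least 5, and 0 had them above (20.2%). TRINITY_DN1065_c1_g1 and TRINITY_DN535_c0_g1 were not among the 76, because LPS 24 h replicate 1 lay above PBS 24 h replicate 2 for both. At 4 h, 2 members had all LPS pools above all PBS pools (7.03%) and 0 below (12.5%). From 4 h to 24 h, 33 were without overlap and lower in LPS (10.9%) and 0 higher (17.1%), and in PBS 7 were higher (3.32%) and 0 lower (11.6%). Nothing is read from these counts, since the rule used the same libraries.

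By edgeR, 0 of the members were called in any of the 5 comparisons. The share of all 32542 genes called for LPS was 0.00307% at 4 h, and at 24 h it was 3.25% (2.98% higher and 0.273% lower). It was 0.0154% for time in PBS, 7.79% for time in LPS (3.14% higher and 4.65% lower at 24 h) and 0.0154% for the difference of the LPS effects. In that order, 2, 78, 18, 19 and 72 members had an unadjusted p below 0.05, against 19.7%, 19.1%, 6.2%, 29.1% and 17.4% of all genes tested. DESeq2 called 0, 19, 1, 4 and 8 members, against 7.59%, 8.71%, 1.04%, 18.7% and 3.96% of the genes to which it gave an adjusted p. With limma-voom the counts were 0, 1, 0, 0 and 0 members, against 0.0%, 3.26%, 0.0%, 4.63% and 0.0123%. Without LPS 4 h replicate 2, edgeR called 0, 0, 0, 6 and 18 members, against 22.2%, 6.14%, 0.444%, 30.2% and 16.2% of the genes tested. The counts describe the members, whose choice used the same libraries.

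The split of reads among isoforms was not used to choose the genes. TRINITY_DN1065_c1_g1 had 5 isoforms, of which 3 held nearly all of its counts. TRINITY_DN1065_c1_g1_i7 held between 41.7% and 47.6% of the gene in each library, TRINITY_DN1065_c1_g1_i2 between 29.1% and 38.0% and TRINITY_DN1065_c1_g1_i1 between 19.3% and 24.2%. The order of the 3 was the same in all 12 libraries. Isoforms of 1 gene share sequence, so the division of reads among them is an estimate. TRINITY_DN535_c0_g1 also had 5 isoforms, and TRINITY_DN535_c0_g1_i4 held between 88.3% and 90.1% of it. For both genes the shares of these main isoforms varied far less than the level of the gene. Isoforms with very few counts varied more. TRINITY_DN535_c0_g1_i5, for example, held between 0.00072% and 0.00344% of its gene.

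Several isoforms were assembled for 29 of the 100 tracking genes, and 71% had 1, against 78.4% of all genes at a mean CPM of at least 5. In 21 of the 29 (72.4%) the same isoform led or tied for the lead in all 12 libraries. Counted in the same way, this held for 69.8% of the 3417 genes with several isoforms at that level. The 21 include TRINITY_DN2932_c0_g2, whose 2 isoforms each held 50% of it in every library, so neither led. The members carried 97 different DN numbers, the part of the identifier before the c number. Of these, 4 were carried by 2 members each, whose c numbers differed. No other member carried the DN number of TRINITY_DN1065_c1_g1. Whether the genes of a pair share sequence was not examined. The r between the genes of a pair was 0.856 to 0.981. Counts of near-identical gene copies are uncertain, and sequences were not analysed here.

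The share of TRINITY_DN1065_c1_g1 did not follow sequencing depth in a detectable way. Over the 12 libraries its log2 CPM had a Pearson r of -0.093 with the log2 library total (permutation p = 0.778, adjusted over 2 relations 0.919) and a Spearman rho of 0.154 (permutation p = 0.638, adjusted 0.751). Without LPS 24 h replicate 3 and PBS 4 h replicate 1, the totals farthest from the median, r was 0.467. With the number of Trinity genes detected r was -0.034 (permutation p = 0.919, adjusted 0.919) and rho was -0.105 (permutation p = 0.751, adjusted 0.751), and r was 0.053 without the 2 farthest libraries.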

How the data were processed

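RNA of 12 spleen libraries was sequenced after preparation with a directional kit, per the labels' protocols. The authors deposited whole-number counts per assembled transcript in 1 matrix of 58975 transcripts. Tools listed in the submitters' processing notes, without roles, are RSEM, Bowtie2, DESeq2, FastQC and Trimmomatic 0.39. Since RSEM estimates counts, the deposited counts may be rounded estimates. The assembly, annotation and strand setting were not given in the sources used here. Isoform counts were added up per Trinity gene. CPM in the text is the count over the library total, which has no length correction and no TMM scaling, so a large transcript share lowers the CPM of every other gene.

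Tests used the robust quasi-likelihood F-test of edgeR 4.0.16 (R 4.3.3), TMM scaling (factors from 0.799 to 1.19) and its expression filter, with 1 mean per group over all 12 libraries. A gene was called at a Benjamini-Hochberg adjusted p below 0.05. Standard errors came from the F statistic. Alternatives used DESeq2 1.42.0 and limma-voom (limma 3.58.1), other scalings, filters and fits, and each library left out. Fits and the choice of genes were also run on simulated data, to check the code only. The simulated followers had independent noise, unlike the members, and no result here rests on these runs. Pools hold separate fish, but each has 1 library, so the spread between pools includes library noise. Wilson intervals of shares cover counting error only, and intervals of log2 fold changes come from the edgeR standard error, which holds the spread between pools. The named genes were the one with most counts, the 2 highest by r, the 2 most abundant tracking genes, the tracking gene lowest by r, the next gene by r, and the gene of lowest r; any others named were chosen after their values were seen. The members and lists were chosen with earlier results of these data known.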

Additional observations from a re-analysis of the deposited data

How the results depend on the processing

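The estimates for TRINITY_DN1065_c1_g1 kept their direction in all 5 comparisons under every alternative fit, with DESeq2 alone making a call, for the difference of the LPS effects (log2 value -2.31, adjusted p 0.0466). Leaving out 1 library gave log2 ranges of 0.76 to 1.57 (LPS at 4 h), -1.77 to -0.66 (LPS at 24 h), 0.86 to 1.98 (time in PBS), -1.42 to -0.55 (time in LPS) and -2.87 to -1.71 (difference). The LPS effect averaged over the times changed sign without PBS 4 h replicate 2 (0.0466), PBS 24 h replicate 3 (0.0530) or LPS 24 h replicate 3 (0.00267), within a range of -0.37 to 0.0530. The number of all genes called depended on the setting far more, and the cause was not tested. For LPS at 4 h it was 1, with 0 under a mean CPM of at least 5, limma-voom or the replicate block, 2321 with DESeq2, and 0 to 7454 without 1 library. For LPS at 24 h it was 1059, with 671 under total counts alone, 473 under the replicate block, 2717 with DESeq2 and 29 to 2059 without 1 library. For time in PBS it was 5, with 8 without a filter, 0 under the replicate block or limma-voom, 339 with DESeq2, 82 with the compared groups alone and 0 to 149 without 1 library. For time in LPS it was 2534, with 1152 under total counts alone, 0 under the replicate block or with the compared groups alone, 5727 with DESeq2, 1506 with limma-voom and 0 to 10113 without 1 library. For the difference it was 5, with 3 under total counts alone, 0 under the replicate block, 1035 with DESeq2 and 0 to 5432 without 1 library. The highest value of each range was without LPS 4 h replicate 2.

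Of the 100 tracking genes, 74 to 99 were kept with other pseudocounts and scalings, Spearman's rho or single transcripts, and 79 to 93 without 1 library. A mean CPM of at least 1 kept 65, deviations within groups kept 62, and leaving out LPS 4 h replicates 1 and 3 together kept 66. A mean CPM of at least 20 kept 62, which are all that reach that level. With TRINITY_DN1065_c1_g1 left out of both numerator and total, the mean share was 2.72% in PBS 4 h, 6.74% in PBS 24 h, 4.45% in LPS 4 h and 2.67% in LPS 24 h, lower in all 4 groups, as this setting removes the gene with most counts. Group means of the share without 1 pool ran from 3.39% to 5.97% (PBS 4 h), 8.37% to 14.6% (PBS 24 h), 6.70% to 9.26% (LPS 4 h) and 3.56% to 6.01% (LPS 24 h). A ratio CV under 20% was found for 5 genes, and for 5 to 8 without 1 library (8 without PBS 4 h replicate 1 or 2), which included the 5 each time; under 25% there were 15. The count of members with all LPS 24 h pools below the PBS 24 h pools, 76, ran to 98 without 1 library. Leaving out a pool can only keep or raise this count, so its lower end was fixed. The CV settings, this count and the shares without 1 pool were chosen after seeing the data. The labels do not say what a replicate number marks. Deviations from group means of same-numbered pools correlated between -0.546 and 0.158, above 0.1 in 2 of 18 pairs, and 0 of 12 libraries correlated best with a pool of their own number, so the replicate block pairs pools by number only; under it TRINITY_DN1065_c1_g1 was at 0.99, -1.36, 1.46, -0.89 and -2.34 in the 5 comparisons.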

Other observations

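The gene most opposed to TRINITY_DN1065_c1_g1, TRINITY_DN36638_c0_g1, had an r of -0.915 at a mean of 9.60 CPM. It was at 12.7, 11.1 and 12.4 CPM in the PBS 4 h pools and 7.92, 7.49 and 4.58 CPM in the PBS 24 h pools. In the LPS 4 h pools it was at 6.42, 10.2 and 9.86 CPM, and in the LPS 24 h pools at 8.43, 11.4 and 12.6 CPM. Its lowest library was PBS 24 h replicate 3, where TRINITY_DN1065_c1_g1 was highest. The CPM in that library also carries the log2 shift of -0.20 in the share left for other genes. The highest and lowest libraries of TRINITY_DN36638_c0_g1 differed 2.77-fold. This gene was chosen for the lowest r of 15804 genes over these libraries, so its opposed pattern follows from the choice.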
